A study of Mus musculus with 6 samples.

Results

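The genes described here make and supply the MHC class I molecule. They are 2 classical heavy chains (H2-K1 and H2-D1), their shared light chain (B2m), the peptide transporter and its partner (Tap1, Tap2 and Tapbp), the class I transactivator Nlrc5, and the 3 catalytic subunits of the immunoproteasome (Psmb8, Psmb9 and Psmb10). They were taken by symbol, through GENCODE release M21, from a table of 54838 gene identifiers, and each of the 10 symbols matched 1 identifier. All 10 were abundant enough to be among the 15136 genes tested. No member passed the test between Cpd10 and DMSO cultures, and the 6 libraries overlapped between the groups for each of them. Nlrc5 had the largest fitted difference, at 0.689 of its DMSO level, and that difference did not pass.

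MHC class I molecules hold short peptides at the surface of nearly all nucleated cells, where CD8 T cells read them. The peptides are cut from cytosolic proteins by the proteasome, carried into the endoplasmic reticulum by the TAP transporter, and loaded onto a heavy chain paired with B2m while tapasin holds the empty molecule at the transporter. In immune cells and after interferon exposure, Psmb8, Psmb9 and Psmb10 take the places of the constitutive catalytic subunits Psmb5, Psmb6 and Psmb7. NLRC5 is recruited to class I promoters by DNA-bound factors of the RFX, CREB/ATF and NF-Y families, which its relative CIITA uses at class II promoters.

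RNA was measured by poly A selected sequencing in 3 DMSO and 3 Cpd10 libraries, each group with replicates A, B and C. The starting cells were sorted naive B cells from spleens of 10 male mice, 3 months of age, immunised 9 days earlier with sheep red blood cells (SRBC), in 2 experiments, and were pooled before culture. All cultures had 80 ng/ml of mouse interleukin 4 and 5 µg/ml of an antibody against CD40 for 5 days. The controls had DMSO, the solvent, and the treated cultures had 1 µM Cpd10, labelled a FOXO1 inhibitor, for 48 h from day 3. Both groups therefore consist of activated cells, although the cell type label reads naive B cells. Whether the letters stand for separate cultures is not stated in the labels, so each p-value reflects only how these libraries differed, and that spread may be technical.

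Library totals ran from 36873204 to 44859930 counts, and the lowest member count was 1863, for Psmb10 in 1 library, with a counting error of 2.32%. The spread between libraries, not depth, therefore set the precision. The 6 B cell markers summed to 4764 to 5074 CPM (counts scaled to a common library size, the unit of all levels here) in DMSO and 4063 to 5249 in Cpd10, against at most 2.48 for 7 T cell markers, 6 of which were under 1 CPM in every library. The other marker sums, DMSO then Cpd10, were 1523 to 3745 and 1562 to 2198 for 5 plasma cell markers, 3.69 to 17.2 and 2.08 to 12.8 for 6 NK cell markers, with Ncr1 at 0, and 13.9 to 21.7 and 8.81 to 14.5 for 6 macrophage and monocyte markers, with Mertk at 0. They were 54.6 to 82.1 and 41.5 to 68.9 for 6 dendritic cell markers, with Clec9a at 0, and 11.9 to 20.7 and 4.93 to 10.1 for 6 fibroblast and endothelial markers, with Col3a1 at 0. The sums hide markers that went both ways. Of the B cell markers 2 were fitted higher in Cpd10 and 4 lower, and none passed the test. Ms4a1 was at 551, 277 and 556 CPM in DMSO and 318, 279 and 284 CPM in Cpd10. Its log2 fold change was -0.65 (edgeR unadjusted p = 0.0385, adjusted p = 0.56). Among the plasma cell markers Xbp1 was fitted higher in Cpd10 and the other 4 lower, and none passed the test. Jchain was at 730, 407 and 2057 CPM in DMSO and 732, 262 and 224 CPM in Cpd10. The part of other cell types in the results was not tested, and in bulk RNA fewer cells of a type and less RNA per cell cannot be told apart. The libraries also fell into 2 sets that cut across the groups: set 1 held DMSO A, DMSO C and Cpd10 A, and set 2 held Cpd10 B and C with DMSO B. On that split 9 genes had at most 3 counts in each library of one set and at least 50 in each of the other, the next best split had 1, and the sets separate along the first principal component (46.3% of variance). The plasma cell markers Jchain and Sdc1 stood in set 2 at 0.254 and 0.151 of their set 1 means. Prdm1 stood at 0.489, Xbp1 at 0.928 and Tnfrsf17, near the floor, at 0.036. The sets are not in the labels and were found in the counts, so a fit with a library set term beside the group, chosen after seeing the data, is given for each member and for the lists. With that term 2 of the 5 plasma cell markers were fitted higher and 3 lower, and none passed. Of the B cell markers 1 was fitted higher and 5 lower, and none passed. The term called lower 1 of 1 tested macrophage and monocyte marker and 1 of 3 tested fibroblast and endothelial markers, beside 1.64% of all genes.

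The promoters of the 3 genes whose products form the class I molecule show the sites on which this regulation is known to rest. RefSeq start sites on GRCm38.p6, with 250 bases before and 50 after, were at hand for 8 of the 10 members, all except Tap2 and Nlrc5. In H2-K1, H2-D1 and B2m, a TGACG (the core of a CREB/ATF site) stands 20 bases ahead of ATTGG, which is CCAAT, the NF-Y site, on the other strand. The stretches below are 5′ to 3′ on the gene's strand, with those letters in capitals. They lie at chr17:34000359-34000388 (minus strand, first base at -41 from the start) for H2-K1, chr17:35262993-35263022 (plus strand, -101) for H2-D1 and chr2:122147609-122147638 (plus strand, -78) for B2m.
H2-K1: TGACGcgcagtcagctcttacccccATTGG
H2-D1: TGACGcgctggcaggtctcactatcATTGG
B2m: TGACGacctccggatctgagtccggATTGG

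The bases between the sites differed among the 3 genes, with 23 of 30 positions identical between H2-K1 and H2-D1, 13 between H2-K1 and B2m and 12 between H2-D1 and B2m. Searched on both strands, TGACG with 20 bases to ATTGG was in 31 of 32851 RefSeq promoter windows (0.0944%) and in 27 of 27025 genes, the class I-like H2-M3 among them. The gap of 20 bases was read from these members, so their own matches were fixed by the choice. Upstream lies the enhancer known to take NF-κB and interferon regulatory factors. It is shown at chr17:34000429-34000458 (minus strand, -111) for H2-K1, chr17:35262923-35262952 (plus strand, -171) for H2-D1 and chr2:122147548-122147577 (plus strand, -139) for B2m. Capitals mark the NF-κB matches and, in B2m, also the interferon-type element GAAANNGAA at the start.
H2-K1: GGGGATTCCCCatctccacagtttcacttc
H2-D1: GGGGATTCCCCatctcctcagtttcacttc
B2m: GAAACTGAAaatgGGAAAGTCCCtttgtaa

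The H2-K1 and H2-D1 stretches matched at 29 of 30 bases. GAAANNGAA was found in the B2m window only, and not in those of H2-K1 and H2-D1. Both of the latter stretches end in tttcacttc, which on the other strand holds GAA, 2 bases and then GAAA. The pattern GAAANNGAA does not match that order on either strand. Its absence therefore does not show that H2-K1 and H2-D1 lack an interferon-type element. The H2-D1 stretches lie ahead of the RefSeq start but inside the first exon of a longer GENCODE transcript. The NF-κB consensus was in 8.46% of the 32851 windows, GAAANNGAA in 8.56%, TGACG in 20.8% and CCAAT in 37.4%, on either strand, where overlapping matches count once per window. Psmb9 and Tap1 are neighbours read in opposite directions, and the single TGACG in each of their windows is the same site, chr17:34187470-34187474. The Tapbp window held 2 CCAAT matches, while those of Psmb8 and Psmb10 held none of these letters. GTAAACA, a forkhead motif of the FOXO family, was in 3.65% of all windows and in none of the members' windows, which says only that these letters are not there.

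H2-K1 (ENSMUSG00000061232, chr17:33996017-34000347), a peptide-binding heavy chain, was measured at 1897, 2127 and 2215 CPM in DMSO A, B and C and at 1962, 2253 and 2117 CPM in Cpd10 A, B and C. The lowest and the highest of these differed by 1.19-fold, and the groups overlapped. The log2 fold change, Cpd10 minus DMSO, was 0.022 (SE 0.141, n = 3 per group, edgeR quasi-likelihood test, adjusted p = 0.982). Its 95% interval runs from 0.808-fold to 1.27-fold.

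H2-D1 (ENSMUSG00000073411, chr17:35262730-35267499), the other classical heavy chain, was at 1448, 1520 and 1658 CPM in DMSO and at 1545, 1673 and 1573 CPM in Cpd10. The Cpd10 libraries lay within the DMSO range except replicate B, which was just above it. Fitted over the groups, the log2 difference was 0.05 (SE 0.128, edgeR adjusted p = 0.955), with an interval of 0.842-fold to 1.27-fold. Of the 75-base stretches in their exons, 5.4% for H2-D1 and 3.1% for H2-K1 also occur in other genes, mainly of the H2-Q and H2-T families, so a small share of their counts is uncertain.

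B2m (ENSMUSG00000060802, chr2:122147686-122153083), the light chain that every class I heavy chain needs to reach the surface, was at 1380, 1487 and 1536 CPM in DMSO and at 1322, 1638 and 1467 CPM in Cpd10. Cpd10 held both the lowest and the highest library. The fitted log2 difference was 0.008 (SE 0.138, edgeR adjusted p = 0.994), with an interval of 0.805-fold to 1.26-fold. For all 3 genes the fitted difference was near 0, and the intervals leave room for modest changes either way. With the set term the fitted values were -0.014 for H2-K1, 0.043 for H2-D1 and -0.039 for B2m, with edgeR adjusted p of 0.967, 0.876 and 0.895.

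**Figure D1:**
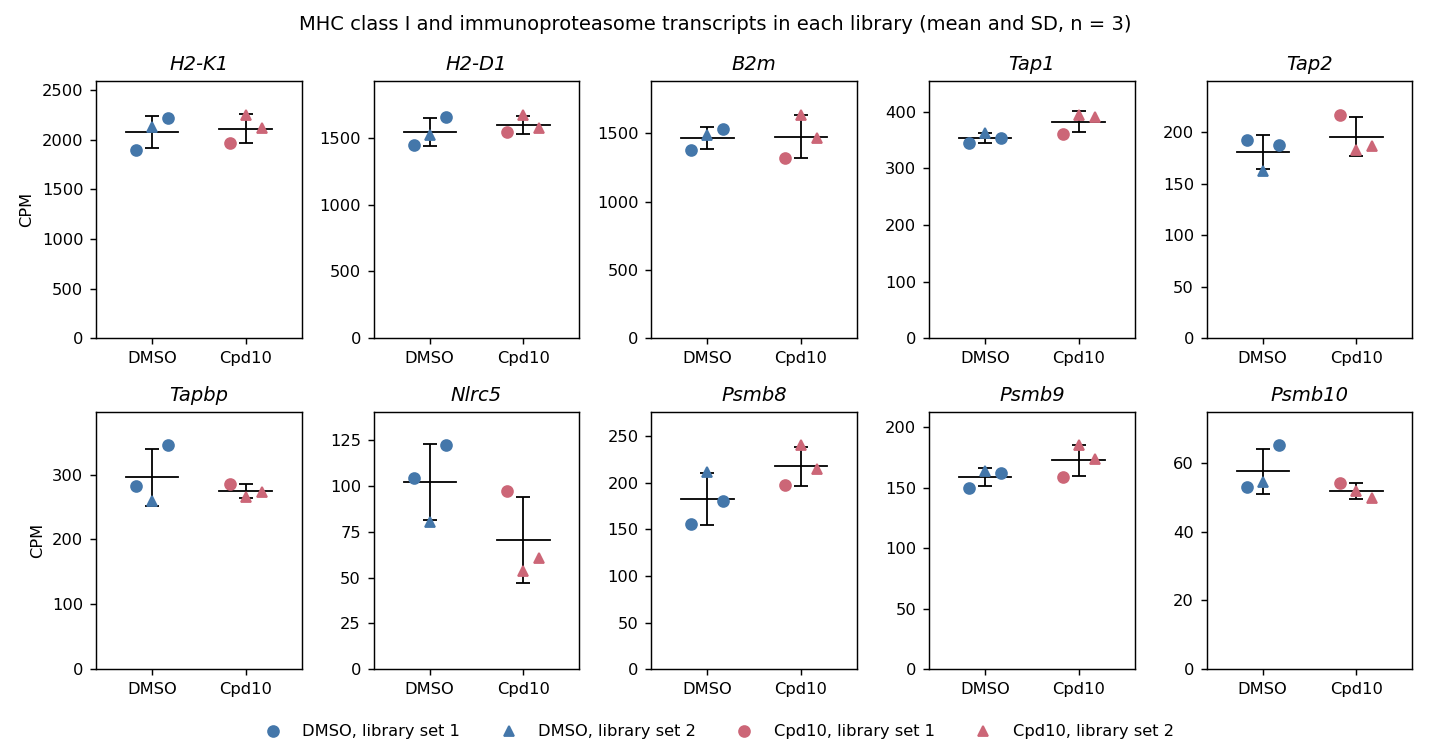
Level of each of the 10 genes in CPM (vertical axes, from 0) in the DMSO and Cpd10 libraries; points are libraries, with the marker shape giving the library set, horizontal lines are group means and error bars are the SD (n = 3). The 2 groups overlap in each panel, and Nlrc5 has the widest spread, 2.29-fold between its highest and lowest library.

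The transporter genes followed. Tap1 (ENSMUSG00000037321, chr17:34187553-34197225) and Tap2 (ENSMUSG00000024339, chr17:34203527-34216321) encode the 2 chains of the TAP peptide pump. Tap1 was at 344, 362 and 354 CPM in DMSO and at 361, 395 and 391 CPM in Cpd10. Replicate A of Cpd10 fell just within the DMSO range and the other 2 were above it. On the log2 scale the difference was 0.11 (SE 0.0945, edgeR adjusted p = 0.847), with an interval of 0.929-fold to 1.26-fold, and the set term gave 0.083 (edgeR adjusted p = 0.68).

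Tap2 was at 192, 162 and 188 CPM in DMSO and at 217, 183 and 187 CPM in Cpd10. The Cpd10 value was 1.14 times the DMSO value within each library set, while set 2 stood at 0.893 of set 1. The log2 fold change was 0.12 (SE 0.112, edgeR unadjusted p = 0.328, adjusted p = 0.865), and the set term gave 0.19 (SE 0.0762, edgeR unadjusted p = 0.0256, adjusted p = 0.222). Neither passed the threshold.

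Tapbp (ENSMUSG00000024308, chr17:33915899-33929292) encodes tapasin, which bridges the empty class I molecule to TAP. It was at 283, 260 and 345 CPM in DMSO and at 286, 265 and 273 CPM in Cpd10, and DMSO C stood above the other 5 libraries. The fitted log2 difference was -0.11 (SE 0.125, edgeR adjusted p = 0.896), and without DMSO C it was 0.023, of the opposite sign. The set term gave -0.041 (edgeR adjusted p = 0.896). Opposite-strand genes overlap 18.5% of the exon length of Tap2 and 24.9% of that of Tapbp, and the strand setting of the counting is not known from the sources at hand.

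Nlrc5 (ENSMUSG00000074151, chr8:94434356-94527272) was the member with the largest difference and the widest spread. It was at 104, 80.3 and 122 CPM in DMSO and at 97.1, 53.4 and 60.6 CPM in Cpd10. Cpd10 B and C were below every DMSO library, but Cpd10 A was within the DMSO range. The mean was 102 ± 21.1 CPM (SD, n = 3) in DMSO and 70.4 ± 23.4 CPM (SD, n = 3) in Cpd10. The log2 fold change was -0.54 (SE 0.252, edgeR unadjusted p = 0.0697, adjusted p = 0.653), with an interval from 0.456-fold to 1.04-fold.

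The library sets moved with this gene. Set 2 averaged 64.8 CPM and set 1 averaged 108 CPM, a ratio of 0.601. Within set 1 the Cpd10 value was 0.858 of the DMSO mean, at 97.1 against 113 CPM, and within set 2 it was 0.71, at 57.0 against 80.3 CPM. With the set term the log2 fold change was -0.36 (SE 0.101, edgeR unadjusted p = 0.00384, adjusted p = 0.077), still short of the threshold. On leaving out 1 library the value ran from -0.83 (without Cpd10 A) to -0.37 (without Cpd10 B), with edgeR adjusted p from 0.159 upward. With the set term it ran from -0.48 (without Cpd10 A) to -0.22 (without DMSO B, edgeR adjusted p = 0.532), and it was called in 1 of the 6 fits, without DMSO A (-0.42, edgeR adjusted p = 0.0102). The fitted value was below 0 in all 20 alternatives.

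The immunoproteasome subunits are proteases of the β ring. Psmb8 (ENSMUSG00000024338, chr17:34197721-34201454), the chymotrypsin-like subunit known as LMP7, was at 156, 212 and 180 CPM in DMSO and at 198, 240 and 215 CPM in Cpd10. Only DMSO B lay among the Cpd10 values. The log2 fold change was 0.25 (SE 0.136, edgeR unadjusted p = 0.101, adjusted p = 0.715), with an interval from 0.957-fold to 1.48-fold. Set 2 stood at 1.25 times set 1, and with the set term the log2 fold change was 0.17 (edgeR adjusted p = 0.388).

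Psmb9 (ENSMUSG00000096727, chr17:34181987-34187764), known as LMP2, was at 150, 164 and 162 CPM in DMSO and at 159, 185 and 174 CPM in Cpd10. Psmb10 (ENSMUSG00000031897, chr8:105935735-105938444), known as MECL-1, was lower than both, at 52.9, 54.4 and 65 CPM in DMSO and at 54.1, 51.7 and 49.6 CPM in Cpd10. Their log2 fold changes were 0.13 (SE 0.0965) and -0.15 (SE 0.113), with edgeR adjusted p of 0.826 and 0.825. The set term gave 0.082 and -0.11, with edgeR adjusted p of 0.713 and 0.664. The 3 subunits, which are built into the same particle, thus had fitted values on both sides of 0, none past the threshold. Opposite-strand genes overlap 14.7% of the exon length of Psmb8 and, through Tap1, 5.79% of that of Psmb9.

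Each of these subunits replaces a constitutive partner, and the pairs were compared as ratios of counts. A ratio of counts within a library does not depend on how libraries were scaled. Psmb8 to Psmb5 was 2.47, 4.75 and 3.08 in DMSO and 3.09, 4.76 and 5.17 in Cpd10 (3.43 ± 1.18 and 4.34 ± 1.1, SD, n = 3). Cpd10 A was level with DMSO C, and Cpd10 B was level with DMSO B. Psmb9 to Psmb6 was 1.37 ± 0.16 (SD, n = 3) in DMSO and 1.41 ± 0.0493 in Cpd10. Psmb10 to Psmb7 was 0.634, 0.62 and 0.911 in DMSO and 0.658, 0.548 and 0.547 in Cpd10. The exact two-sided permutation p was 0.2, 0.8 and 0.3 for the 3 ratios, where 3 against 3 allows no p under 0.1, and 0.45, 0.8 and 0.45 after Benjamini-Hochberg adjustment over the 3. Within set 1 and set 2 the differences of log2 ratios were 0.16 and 0.063, -0.0019 and 0.11, and -0.21 and -0.18. Leaving out 1 library moved the first from 0.36 to between 0.15 (without DMSO A) and 0.62 (without DMSO B), and the third from -0.29 to between -0.38 (without DMSO B) and -0.11 (without DMSO C). A pseudogene shares 32.9% of the 75-base stretches of Psmb5, so the first ratio is the least certain in level.

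**Figure D2:**
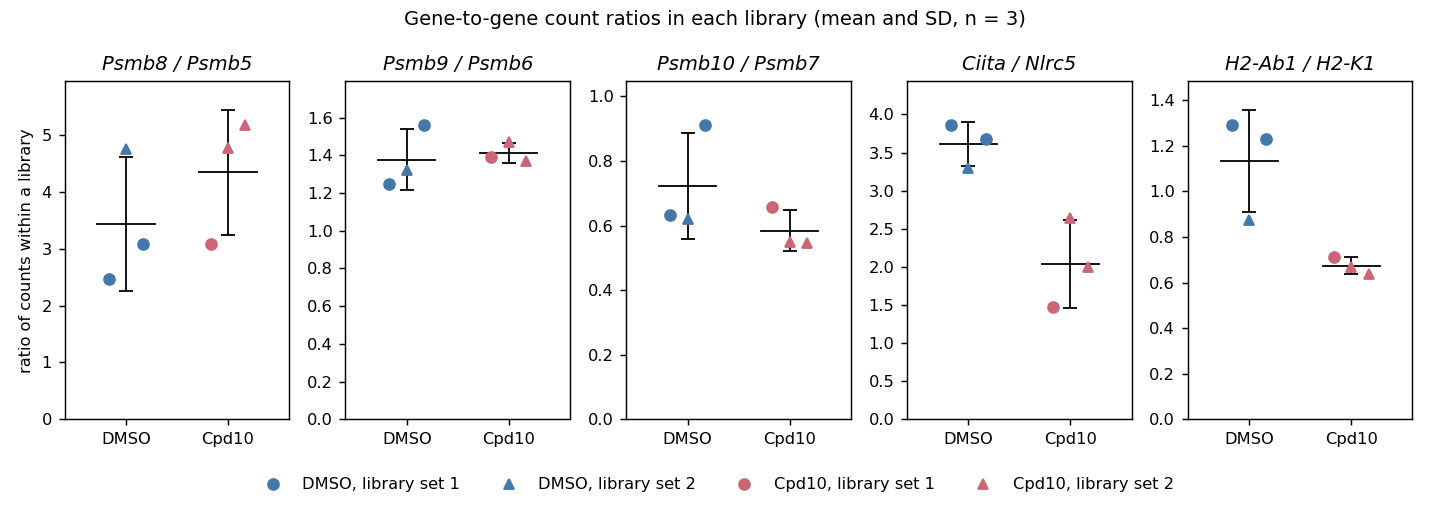
Ratio of counts (vertical axes) within each DMSO and Cpd10 library for 5 gene pairs; points are libraries, with the marker shape giving the library set, horizontal lines are group means and error bars are the SD (n = 3). The subunit ratios overlap between groups, while Ciita to Nlrc5 and H2-Ab1 to H2-K1 are lower in each Cpd10 library than in each DMSO library.

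Over the members together, 0 of 10 were called at an edgeR adjusted p under 0.05, beside 0.370% of all genes tested (56 of 15136). None had an unadjusted p under 0.05, beside 8.39% of all genes, and DESeq2 and limma-voom called 0 as well, with 1 (Nlrc5) and 0 at an unadjusted p under 0.05. None had groups of libraries that did not overlap, beside 14.6% of all genes. With the set term 0 were called, beside 3.96% of all genes, and 2 (Tap2 and Nlrc5) had an unadjusted p under 0.05. With shares of the whole table this small, 0 called among 10 is near the background; the intervals carry the result. The median log2 fold change of the members was 0.036 against -0.0012 over all genes, and the median size of change was 0.115 against 0.185. The genes tested include some at far lower levels than any member, and no comparison matched for level was made.

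**Figure D3:**
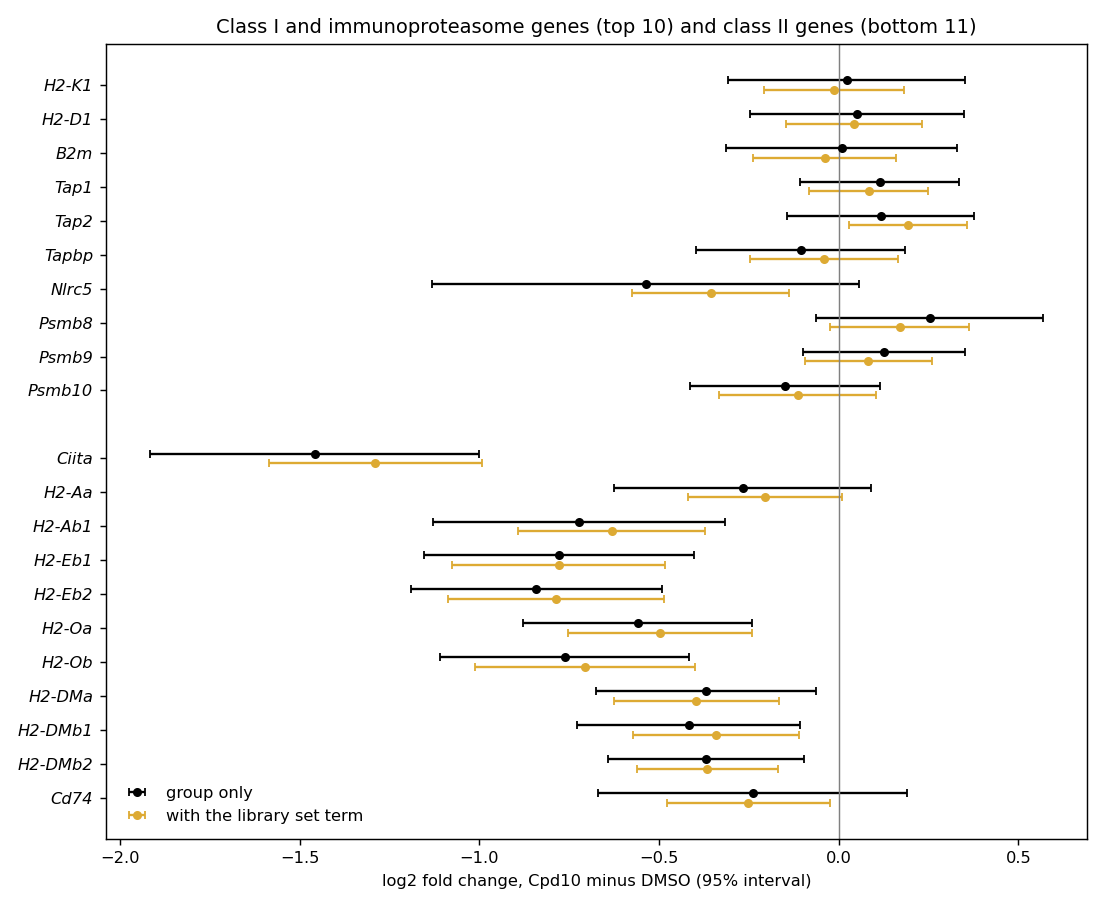
Log2 fold change, Cpd10 minus DMSO (horizontal axis), with its 95% interval for the 10 members and the 11 class II genes, fitted with the group alone and with the library set term. The member intervals from the group alone all include 0. With the set term those of Tap2 (0.0275 to 0.357) and Nlrc5 (-0.574 to -0.137) do not, though neither gene was called. From the group alone, the intervals of all class II genes except H2-Aa and Cd74 lie wholly below 0, that of Ciita among them.

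Per length, the members formed a steep order. In DMSO, in CPM per kilobase of exon, B2m stood at 1707 ± 92.9 (SD, n = 3), H2-K1 at 708 ± 55.9 and H2-D1 at 598 ± 41.4. Next came Tapbp at 81.5 ± 12.2, Tap1 at 64.6 ± 1.65, Psmb8 at 54.0 ± 8.25, Tap2 at 47.8 ± 4.26 and Psmb9 at 43.3 ± 2.02. Psmb10 at 33.7 ± 3.87 and Nlrc5 at 12.0 ± 2.49 closed the order. Only the neighbours Psmb8 and Tap2, and Tap2 and Psmb9, had overlapping ranges in DMSO. In Cpd10 the same order held by mean, with B2m at 1716 ± 184 and Nlrc5 at 8.29 ± 2.76, and the overlapping neighbours were Tap1 with Psmb8 and Tap2 with Psmb9. When the length of the principal transcript was used, B2m, H2-K1 and H2-D1 kept the first 3 places, and Psmb10 and Nlrc5 kept ranks 9 and 10. In both groups Tapbp fell from rank 4 to 7, Tap2 fell from rank 7 to 8 and Psmb9 rose from rank 8. Tap1 changed rank in DMSO only and Psmb8 in Cpd10 only, so the order in the middle depends on the length chosen.

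The rest of the class I pathway was read from 9 other lists, with 106 genes in all. Of 9 loading and trimming genes, 0 were called. Fitted values were above 0 for 2 and below for 7, beside 49.8% of all genes above 0, with a median log2 fold change of -0.042. In the fit with the set term, 3 were above and 6 below, beside 48% of all genes above 0, and 0 were called. Pdia3, the ERp57 oxidoreductase of the loading complex, was the one whose groups did not overlap, at 827, 820 and 973 CPM in DMSO and 787, 702 and 661 CPM in Cpd10, a log2 difference of -0.29 (SE 0.131, edgeR adjusted p = 0.629). Tpp2, a cytosolic peptidase, had -0.26 (edgeR adjusted p = 0.647), the aminopeptidase Erap1, which trims peptides in the endoplasmic reticulum, -0.17 (0.86), and the hydrolase Blmh 0.14 (0.85).

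The proteasome subunits outside the member list had small fitted values. None of the 3 constitutive catalytic subunits was called, at -0.091 for Psmb5, 0.077 for Psmb6 and 0.14 for Psmb7. All 11 other core subunits had fitted values above 0, from 0.018 to 0.25, beside 49.8% of all genes. With the set term 10 of 11 did, beside 48% of all genes, and neither fit called any. Psmb3, a structural β subunit, was at the top (SE 0.108, edgeR adjusted p = 0.606), and Psmb4 (0.19), Psma7 (0.15) and Psma2 (0.12) came next by p. Of 18 subunits of the 19S cap, which unfolds substrates, 17 were fitted above 0, beside 49.8% of all genes, 0 were called, and 6 had Cpd10 libraries all above DMSO, beside 7.31% of all genes. Adding the set term left 15 above 0 and 3 below, and 0 were called. Psmd3 had 0.23 (SE 0.096, edgeR adjusted p = 0.577), and the ATPases Psmc6, Psmc3 and Psmc4 had 0.20, 0.18 and 0.15, with edgeR adjusted p of 0.697, 0.711 and 0.807.

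Among 10 activators and assembly factors 0 were called. Psme4, the PA200 cap, was at 147, 166 and 160 CPM in DMSO and at 130, 126 and 129 CPM in Cpd10, without overlap. Its log2 fold change was -0.30 (SE 0.0874, edgeR unadjusted p = 0.0095, adjusted p = 0.33), and the fit that added the set term called it lower, at -0.31 (edgeR adjusted p just under the threshold), a call lost in 5 of 6 fits that also left out 1 library, all but that without DMSO A. Psme1 and Psme2, which form the interferon-inducible PA28 cap, had 0.23 and 0.22 (edgeR adjusted p = 0.746 and 0.69), and the assembly chaperone Psmg1 had 0.25 (0.772).

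Other class I and class I-like genes leaned lower than the members did. Of 16 tested of 19, 13 were fitted below 0 and 3 above, beside 49.8% of all genes above 0, and 0 were called. In this list 4 had an unadjusted p under 0.05 with a lower value and 3 had Cpd10 libraries all below DMSO, beside 4.53% and 7.32% of all genes. The median log2 fold change was -0.24. Fcgrt and H2-Q10, both below 0, were near the floor, with DMSO and Cpd10 means of 1.14 and 0.368 CPM, and 0.784 and 0.574 CPM. H2-T22, H2-Q6, H2-T10 and H2-Q4, also below 0, were only at -0.015 to -0.065. Of their 75-base stretches, 7.02% to 18.5% also occur in other genes. Adding the set term put 15 below 0 and 1 above, beside 48% of all genes above 0, and 2 were called lower, beside 1.64% of all genes. H2-M5, a class I-like gene, was at 81.4, 55.7 and 84.4 CPM in DMSO and at 35.5, 41.5 and 41.9 CPM in Cpd10. Its log2 fold change was -0.90 (SE 0.171, edgeR adjusted p = 0.11), and it was called with the set term (-0.82, edgeR adjusted p = 0.0373), without DMSO B (edgeR adjusted p = 0.0202), with no low-count filter and by DESeq2. The call with the set term was lost without DMSO C, Cpd10 A, Cpd10 B or Cpd10 C, with edgeR adjusted p up to 0.266, and the value was -0.40 without Cpd10 A.

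Cd1d1, which presents lipids to NKT cells, was at 9.45, 5.67 and 10.9 CPM in DMSO and 4.52, 4.21 and 5.46 CPM in Cpd10, a log2 difference of -0.88 (edgeR adjusted p = 0.414). H2-T23, the Qa-1 molecule seen by the CD94 and NKG2 receptors, was at 266, 233 and 312 CPM in DMSO and 171, 228 and 204 CPM in Cpd10, which is -0.42 on the log2 scale (edgeR adjusted p = 0.475). H2-M3, which presents formylated peptides and carries the module shown above, had -0.33 (edgeR adjusted p = 0.529), and its groups overlapped. Mr1, which presents vitamin B metabolites, falls outside the naming rule and is given because the set term called it (-0.72, edgeR adjusted p = 0.039), a call that was lost in 5 of 6 fits that also left out 1 library, all but that without DMSO A. H2-Q2, H2-T3 and H2-M2 were not tested.

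The factors that act on class I promoters gave no call in fits of all 6 libraries. Of 8 promoter-binding factors 0 were called, with or without the set term. When DMSO C was left out, the fit with the set term called Nfya higher. Nfya, the DNA-contacting chain of NF-Y, was above DMSO in each Cpd10 library (log2 fold change 0.31, SE 0.113, edgeR adjusted p = 0.51). Atf1 (0.10), Rfx5 (-0.12) and Nfyc (-0.14) had edgeR adjusted p of 0.887, 0.887 and 0.892. Of 15 tested interferon and NF-κB signalling genes of 17, 0 were called in either fit and the median was 0.030. Jak2 had 0.42 with the set term (edgeR adjusted p = 0.0592). That fit called it higher when DMSO A or DMSO B was left out. Irf1, an interferon-induced activator of class I genes, was at 42.7, 45 and 56.9 CPM in DMSO and 41.2, 42 and 33.6 CPM in Cpd10 (-0.31, edgeR adjusted p = 0.669). Ifngr2 (0.21), Nfkb1 (0.23) and Jak1 (-0.20) had edgeR adjusted p of 0.709, 0.736 and 0.777. Ifng and Ifnb1, the ligands, were too low to be tested.

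**Figure D4:**
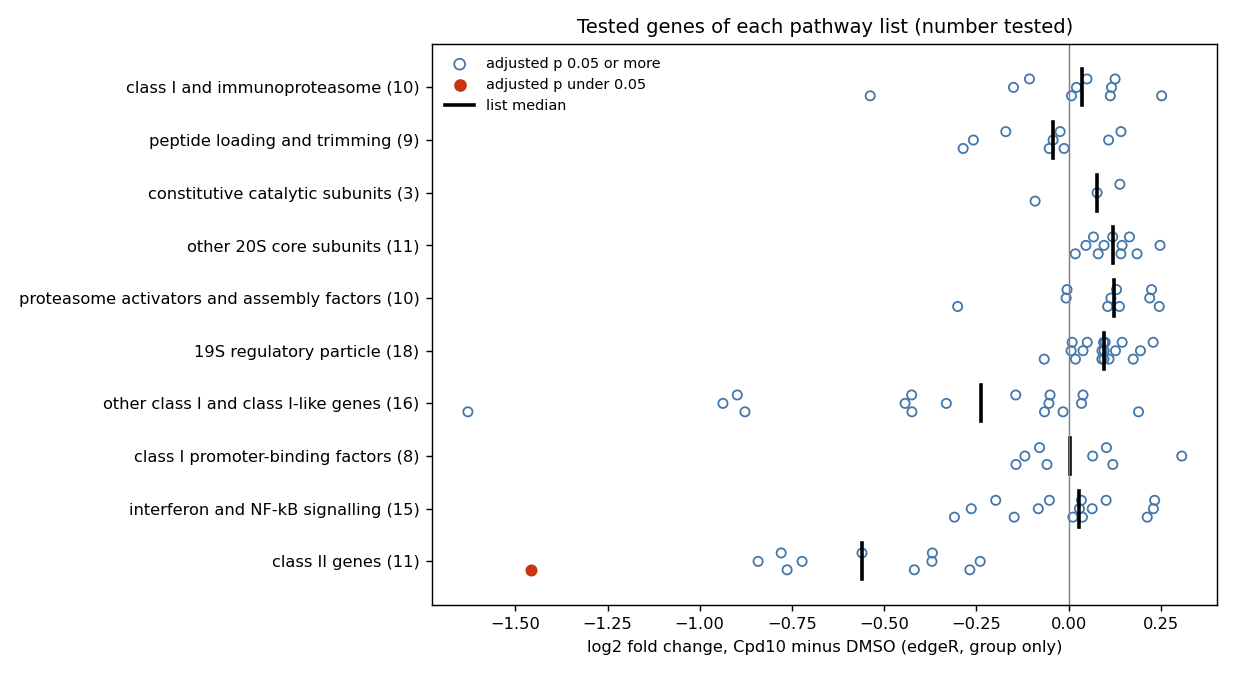
Log2 fold change, Cpd10 minus DMSO (horizontal axis), of each tested gene of the 10 lists; points are genes, filled where called at an edgeR adjusted p under 0.05, and vertical ticks are list medians. The class I and immunoproteasome median is 0.036 and the class II median is -0.56, and Ciita is the only filled point.

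Class II genes, the nearest pathway in function, stood apart in their values. All 11, Ciita included, were fitted below 0, with a median of -0.56, while 49.8% of all genes were fitted above 0. One was called lower, beside 0.0529% of all genes, 9 had a lower value at an unadjusted p under 0.05, beside 4.53% of all genes, and 10 had Cpd10 libraries all below DMSO, beside 7.32%. With the set term 7 were called lower, beside 1.64% of all genes, and 1 (without Cpd10 A or Cpd10 C) to 8 (without DMSO A) when 1 library was also left out. This pattern was known before these lists were drawn up, and it is given as a description.

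Ciita, the class II transactivator, was at 401, 265 and 450 CPM in DMSO and at 144, 141 and 121 CPM in Cpd10, without overlap. Its log2 fold change was -1.46 (SE 0.196, edgeR adjusted p = 0.0355), while the set term gave -1.29 (edgeR adjusted p = 0.000662). The call from the group alone was lost on leaving out 1 library in 5 of 6 cases. The edgeR adjusted p was 0.219 without DMSO A, 0.118 without DMSO C, and 0.0726, 0.17 and 0.239 without Cpd10 A, B and C. With the set term the call was kept in all 6 such fits, with edgeR adjusted p from 0.000251 to 0.00897. H2-Eb2, H2-Ob and H2-Eb1, a β chain gene, a chain of the peptide editor inhibitor H2-O and the β chain of I-E, had -0.84, -0.76 and -0.78, with edgeR adjusted p of 0.087, 0.116 and 0.13, and each was called with the set term. That call was lost without Cpd10 A and without Cpd10 C for all 3, and for H2-Ob also without DMSO B and without Cpd10 B.

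The 2 transactivators and the 2 classes of antigen-presenting chain were set against each other within libraries, with pairs chosen after their values were seen. Ciita to Nlrc5 was 3.86, 3.3 and 3.68 in DMSO and 1.48, 2.64 and 2 in Cpd10. H2-Ab1, the I-A β chain, to H2-K1 was 1.29, 0.875 and 1.23 in DMSO and 0.714, 0.67 and 0.639 in Cpd10. Every Cpd10 library was below every DMSO library for both. The difference of log2 ratios was -0.86 and -0.73, given with no test because the pairs were chosen for their values. Within set 1 and set 2 the differences were -1.35 and -0.52 for Ciita to Nlrc5 and -0.82 and -0.42 for H2-Ab1 to H2-K1. Because the groups did not overlap, the shared direction in both sets was fixed and adds no support. These values rest on 1 Cpd10 library in set 1 and 1 DMSO library in set 2.

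The genes whose pattern over the 6 libraries was most like the members' shared pattern were Afmid (Pearson r 0.986), Mettl14 (0.975), Wbp1 (0.969), Hikeshi (0.964) and Akirin1 (0.959). The measure is the correlation of log2 CPM with the mean standardised log2 CPM of the 10 members, taken over 8780 candidates. With 6 libraries that share depth and library set, values this high are a description only. Afmid, for example, was at 8.78, 10.5 and 12.9 CPM in DMSO and 10.5, 12.2 and 11 CPM in Cpd10, lowest in DMSO A and highest in DMSO C.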

How the data were processed

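The authors deposited raw counts of reads by gene in 1 table that covers the 6 libraries. Per the submitters' processing notes the tools were STAR 2.7.10a, featureCounts 2.0.6 and DESeq2, with GRCm38 (mm10). The strand setting is not given in the sources at hand. Of 54838 identifiers, 54809 were found in GENCODE M21, which gave symbols, coordinates and exon lengths. Promoter sequences are RefSeq's.

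Counts were tested with edgeR 4.0.16 (R 4.3.3): TMM normalisation, filterByExpr, a robust quasi-likelihood fit on group alone and Benjamini-Hochberg adjustment over 15136 genes, called under 0.05. CPM values use the normalised library sizes. Ratios of counts were compared by exact permutation. Replicate libraries differed beyond sampling noise (chi-square per degree of freedom 12.1 to 176), so none was counted as a duplicate. The edgeR, DESeq2 and limma-voom fits on group alone were run on simulated counts with known changes. Those counts held no library sets, and the fit with the set term was not simulated.

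Alternatives were RLE, upper-quartile and unadjusted library totals, no low-count filter, DESeq2 1.42.0, limma-voom (limma 3.58.1), a replicate block and leaving out each library. A term for the library set was chosen after seeing the data. The members and lists were chosen with earlier results of these data known. Named were all members, called genes and up to 4 genes with the smallest p of each other list, Ciita, and the 5 genes most like the members with a mean of at least 10 CPM. H2-Ab1, Mr1, Fcgrt, H2-Q10, H2-T22, H2-Q6, H2-T10, H2-Q4, Jak2, Ms4a1, Xbp1, Jchain, Sdc1, Prdm1 and Tnfrsf17 were named after their values were seen.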

Additional observations from a re-analysis of the deposited data

How the results depend on the processing

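The number of members called was 0 in the reported fit and in all alternatives except the library set term without DMSO A, where it was 1 (Nlrc5). Tap1, Tap2, Nlrc5, Psmb8, Psmb9 and Psmb10 kept their direction in all 20 alternatives. Near 0, signs turned: H2-K1 was -0.012 and B2m -0.027 with library totals alone, and -0.014 and -0.039 with the library set term. On leaving out 1 library, H2-K1 ran from -0.0358 to 0.0798, B2m from -0.0728 to 0.0892 and Tapbp from -0.19 to 0.0232, and the log2 ratio of Psmb9 to Psmb6 ran from -0.021 to 0.14. With the set term as well, H2-K1 ran from -0.067 to 0.0522, with -0.0471, -0.0404 and -0.0015 when DMSO A, Cpd10 B and Cpd10 C were left out in turn. B2m ran from -0.14 to 0.0753, with -0.0519, -0.0878 and -0.0188 in those cases. H2-D1 was -0.0075 without DMSO B, and Tapbp was 0.0431 without DMSO C and 0.0664 without Cpd10 A. The cause was not tested. Calls over the whole table were 56, against 194 with no low-count filter, 356 with DESeq2, 599 with the set term, 0 to 100 on leaving out 1 library and 130 to 907 on doing so with the set term (907, 437 and 622 without DMSO A, B and C, and 130, 343 and 225 without Cpd10 A, B and C). Calls among the pathway lists were 1 (Ciita), against 6, 6 and 10, and 0 to 2 and 1 to 12, in the same order (12, 9 and 6, and 1, 5 and 1, with the set term). Without Cpd10 C no gene was called over the whole table, and without DMSO A 5 were. With a replicate block the lists gave 0, since Ciita was at -1.43 with an edgeR adjusted p of 0.0641. The block changed no other call among the members and the pathway lists. Deviations of same-letter libraries correlated at 0.309 for A, 0.432 for B and -0.315 for C, and not every library correlated best with its own letter. DMSO and Cpd10 libraries of the same set correlated at 0.309 to 0.464, and those of different sets were all below 0. The signs thus followed the library sets, so these values cannot show whether the letters pair the samples. A fit that leaves 2 libraries in a group estimates the spread of each gene from fewer libraries. As in the reported fit, that spread is moderated with values from all genes. Depth did not limit the members, whose counts ran from 1863 to 91045.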
